A study of Mus musculus with 36 samples.

Results

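The 6 genes described here, *Dppa2*, *Dppa3*, *Dppa4*, *Dppa5a*, *Fbxo15* and *Utf1*, are transcripts best known from early embryos and embryonic stem cells, and they were chosen by gene symbol. All 6 had a row among the 25965 genes of the expression table. The study followed gene expression in Xmas mESCs, which are female mouse embryonic stem cells of the C57/Bl6 strain that carry a GFP and a mCherry reporter, one on each X chromosome, both expressed with the endogenous *Hprt* gene. The cells were grown in 2i, a serum-free medium with inhibitors of MEK and GSK3, and were then weaned into DME HiHi, a medium with serum and without LIF, which lets them differentiate in no fixed direction. RNA was sequenced on days 0 to 8. Each of the 9 days had 4 libraries, namely line X14 labelled double, line X14 labelled single, line X18 labelled double and line X18 labelled single. These 4 combinations of line and label are called cultures below, although the labels do not say that they were grown apart. What double and single stand for is not explained in the labels. No genotype or treatment other than the day, the line and this label set the libraries apart, and all results rest on the same 2 lines and on one mode of differentiation.

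*Dppa* stands for developmental pluripotency associated. Dppa2 and Dppa4 are small nuclear proteins with a SAP domain, a DNA-binding fold, that bind each other and occupy CpG-rich promoters, where they keep developmental genes open to activation and switch on genes of the 2-cell embryo such as the *Zscan4* family. Dppa3, also called Stella or PGC7, is a maternal and germ cell protein that shields DNA methylation from TET enzymes in the zygote and holds the methylation maintenance factor Uhrf1 out of the nucleus. Dppa5a is a cytoplasmic protein with a KH-type RNA-binding fold and belongs to one family with Ooep and Khdc3. Fbxo15 is an F-box protein, the part of an SCF ubiquitin ligase that picks the substrate, and is a classical reporter gene for reprogramming because it is a target of Oct4 (*Pou5f1*) and Sox2. Utf1 is a chromatin-bound protein that limits Polycomb loading at bivalent genes and guides mRNA decapping through Dcp1a, and it too is a target of Oct4 and Sox2.

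The genes lie on 5 chromosomes of the mm10 build. *Dppa4* (chr16:48283735-48294292) and *Dppa2* (chr16:48310477-48319723) are neighbours on the plus strand with 16184 bases between them. *Dppa3* lies at chr6:122626410-122630272 on the plus strand, *Dppa5a* at chr9:78367052-78368177 on the minus strand, *Fbxo15* at chr18:84935158-84981376 on the plus strand and *Utf1* at chr7:139943789-139945112 on the plus strand. One other row of the table, *1700034H14Rik* (chr18:84947294-84951524), falls within the span of *Fbxo15*. It was at 3.34 RPM on day 0 and 30.4 RPM on day 8, the opposite order to *Fbxo15*. *Dppa5b*, a copy of *Dppa5a*, had 2 reads in all 36 libraries together. *Dppa3* and *Dppa5a* have processed copies elsewhere in the genome, and how reads that match several places were counted is not given in the sources used here, so their levels are uncertain to that extent.

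Levels are given as RPM, the reads of a gene per 1000000 reads of the library, recovered from the deposited log2 values. The libraries held 612740 to 2445826 reads in genes, and a count of 3 reads, used as a floor for counting error, was worth 1.04 to 3.90 RPM. In each list of 4 values the order is X14 double, X14 single, X18 double and X18 single. Differences are log2 fold changes from a limma fit over all 36 libraries and 14612 genes, with Benjamini-Hochberg adjusted p-values over all those genes, and a gene was called when the adjusted p was under 0.05 and the log2 fold change at least 1. The p-values measure the spread between these libraries, which come from 4 cultures, and nothing says that the cultures were grown more than once. The day 0 libraries of X14 went against their labels. Of 217 genes that were higher in the double library in all 16 pairs of days 1 to 8, 97.2% had the opposite order in X14 on day 0, and only 14.3% in X18. For the 208 genes higher in the single library the shares were 89.9% and 1.44%. These 2 libraries are therefore called the libraries labelled double and single, and results that rest on their label are given with and without day 0.

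The day 0 cells carried the defining transcripts of mESCs. *Pou5f1* was at 1223 ± 290.2 RPM (SD, n = 4), *Nanog* at 1876 ± 484, *Sox2* at 346 ± 139 and *Zfp42* at 126 ± 45.9, and the primed-state gene *Fgf5* had no read. All 6 members changed over the 9 days (F test of the limma fit, adjusted p = 4.97e-12 to 0.0150), as did 65.2% of all genes tested. The call for *Dppa3* was lost without the X18 double culture (adjusted p = 0.0987) and without the X18 single culture (adjusted p = 0.138). In bulk RNA, fewer cells that express a gene and less RNA per cell cannot be told apart.

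**Figure D1:**
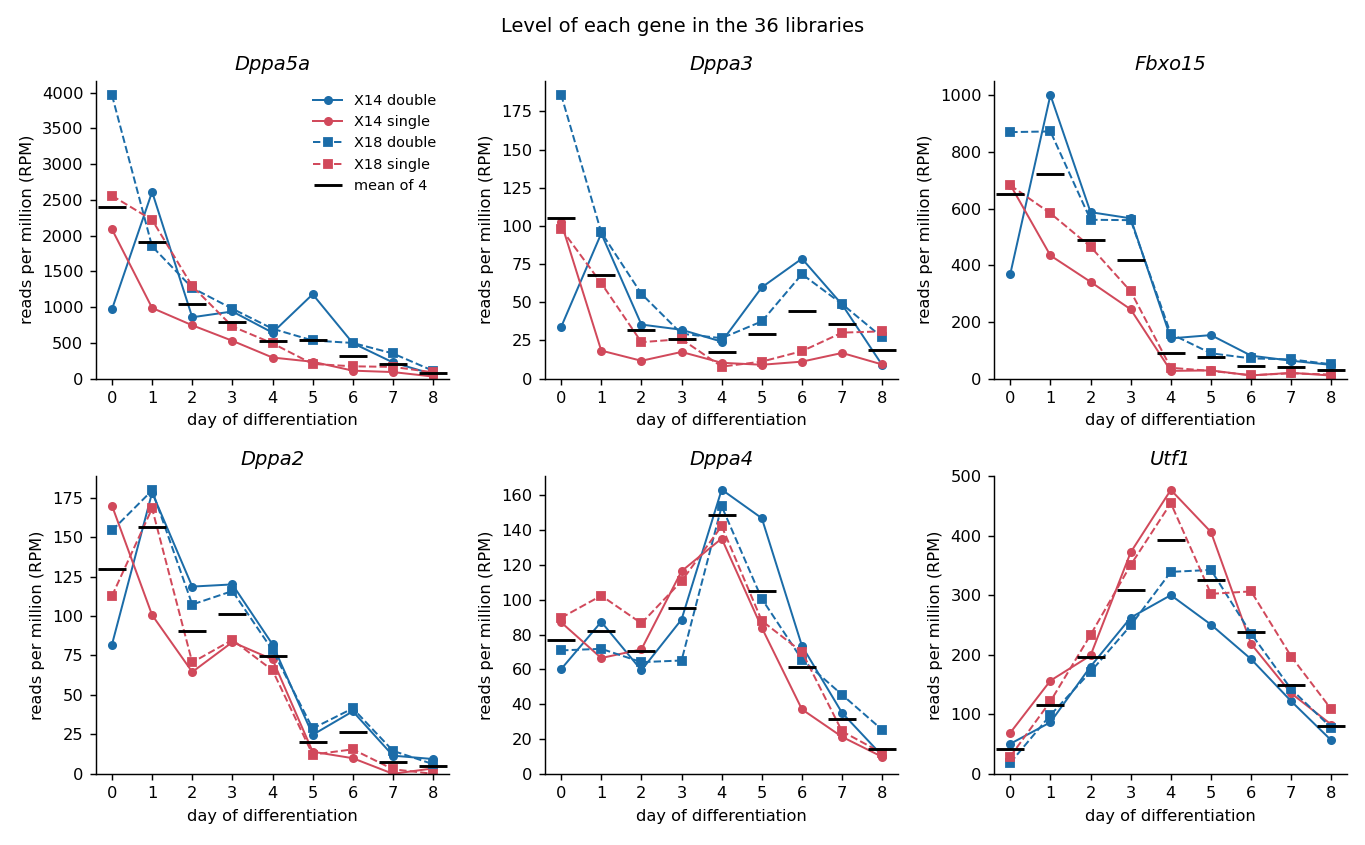
Level of each gene (y axis, RPM from 0) by day of differentiation (x axis) in the 36 libraries; blue is double, red is single, circles and solid lines are X14, squares and broken lines are X18, and black bars are the means of 4. *Dppa5a* went from a mean of 2395 to 71.6 RPM, *Dppa4* was highest on day 4 in all 4 cultures, and *Utf1* went from 41.7 RPM on day 0 to 393 on day 4.

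*Dppa5a* fell by day 4 and fell again by day 8. On day 0 its libraries had 969, 2088, 3964 and 2557 RPM, and on day 2 they had 857, 745, 1268 and 1292 RPM. On day 4 the values were 643, 294, 697 and 493 RPM. All 4 day 4 libraries lay below all 4 of day 0, while on day 2 the groups overlapped because the X14 library labelled double was already low on day 0. The day 8 libraries, at 60.7, 28.7, 109 and 88.03 RPM, lay below every library of days 0 to 6. The mean was 2395 ± 1240.5 RPM (SD, n = 4) on day 0 and 71.6 ± 34.7 RPM (SD, n = 4) on day 8, 33.5 times less. *Dppa5a* fell by day 4 (log2 fold change -2.08, SE 0.52, adjusted p = 0.00300) and further by day 8 (log2 fold change -5.06, SE 0.52, adjusted p = 1.15e-09). On day 3 the difference from day 0 missed the threshold (log2 fold change -1.47, SE 0.52, adjusted p = 0.0536), and with the culture as a replicate block it passed (adjusted p = 0.00788). It also passed without the X14 double culture (adjusted p = 0.00991) and without the X14 libraries of day 0 (adjusted p = 0.0104), and without these libraries day 2 passed as well (-1.65, adjusted p = 0.0388). In 3 of the 4 cultures the level was lower on every day than on the day before. For X14 single the fall from day 0 to day 1 rests on the doubtful day 0 label. Its day 1 library, at 988 RPM, was above the 969 RPM of the day 0 library labelled double. X14 double was higher on day 1 than on day 0, at 2611 RPM, on day 3 than on day 2, at 939 RPM, and on day 5 than on day 4, at 1179 RPM, and its day 5 library was the shallowest of the 36.

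*Dppa3* was lower on day 4 than on day 0, but it had reads in every library and did not keep falling. Its day 0 libraries had 33.8, 102, 186 and 98.2 RPM, and its day 4 libraries had 24.2, 10.4, 26.5 and 7.85 RPM. All day 4 libraries were below all day 0 libraries. The difference was called (log2 fold change -2.56, SE 0.65, adjusted p = 0.00369), and the call was lost without the X18 single culture (-2.20, adjusted p = 0.0705). The spread on day 0 was wide, since the X14 library labelled double held 33.8 RPM and the X18 double library 186 RPM. On days 2, 3 and 6 *Dppa3* was not called against day 0 (adjusted p = 0.110, 0.0598 and 0.0650). Of all genes, 0.876% were called lower on day 2 and 3.17% on day 3. With the replicate block *Dppa3* was called lower on all 3 days (adjusted p = 0.0245, 0.00833 and 0.0110). Without the X14 libraries of day 0 it was also called on days 2, 3 and 6 (adjusted p = 0.0238, 0.0177 and 0.0275). The same held without the whole X14 double culture (adjusted p = 0.0208, 0.0123 and 0.00641).

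After day 4 the 4 cultures did not share one course for *Dppa3*. On day 6 its libraries had 78.6, 11.1, 68.4 and 17.97 RPM, so both double cultures were above all their own values of days 2 to 5 and both single cultures were lower than either double culture. On day 7 the values were 48.5, 16.8, 48.8 and 30.1 RPM, and on day 8 they were 8.83, 9.23, 26.98 and 30.9 RPM. The 2 double cultures were thus lower on day 8 than on day 6, while the X18 single culture was higher. Day 6 against day 4, a comparison chosen after these values were seen, gave a log2 fold change of 1.53 in the double libraries (adjusted p = 0.0667) and of 0.65 in the single ones (adjusted p = 0.600). Neither passed, where 6.17% and 3.68% of all genes were called higher. Their difference was not called either, where 0.00684% of all genes were called higher (0.89, 95% confidence interval -0.66 to 2.43). Day 8 was lower than day 0 (log2 fold change -2.46, SE 0.65, adjusted p = 0.00239), and against day 4 its difference was 0.10 (95% confidence interval -1.23 to 1.42).

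*Fbxo15* was not called against day 0 on days 2 and 3, and then showed a called drop within 1 day. On day 3 its libraries had 565, 244, 559 and 308 RPM, overlapping those of day 0, which had 369, 684, 869 and 682 RPM. Each day 3 library was nonetheless below the day 1 library of its culture, the day 1 values being 1000, 434, 872 and 583 RPM. On day 4 the libraries had 142, 27.2, 158 and 38.1 RPM. Every day 4 library was below every library of days 0 to 3. The mean went from 419 ± 167 RPM (SD, n = 4) to 91.2 ± 68.1 RPM (SD, n = 4), 4.59 times less. The step was called (log2 fold change -2.50, SE 0.64, adjusted p = 0.0131), and the call was lost without the X14 single culture (-2.28, adjusted p = 0.0643) or the X18 single culture (-2.33, adjusted p = 0.104). *Fbxo15* was the only member called lower between days 3 and 4, where 1.70% of all genes were called lower. Against day 0 it was lower on day 4 (log2 fold change -3.16, SE 0.64, adjusted p = 3.89e-04) and day 8 (log2 fold change -4.65, SE 0.64, adjusted p = 4.24e-07). The day 8 libraries had 48.3, 10.7, 50.5 and 14.3 RPM and overlapped those of day 4, and day 8 against day 4 was called only with the replicate block (log2 fold change -1.49, adjusted p = 0.0735 without and 0.00253 with it).

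The partners *Dppa2* and *Dppa4* lie side by side in the genome. They differed in their course up to day 4 and in when they fell. Both were called lower from day 4 to day 8, beside 9.01% of all genes. *Dppa2* had 81.9, 169.9, 154 and 113 RPM on day 0 and 82.00, 72.5, 78.3 and 65.6 RPM on day 4, and these groups overlapped. On day 5 it had 24.7, 13.99, 28.7 and 12.2 RPM, below every library of days 0 to 4. The drop from day 4 to day 5 was called (log2 fold change -1.995, SE 0.59, adjusted p = 0.0186), again not without the X18 single culture (-1.85, adjusted p = 0.0999). *Dppa2* was the only member called lower in this step, as were 5.78% of all genes. On day 6 it had 39.6, 9.87, 41.5 and 15.5 RPM, higher than on day 5 in every culture but X14 single. From day 5 to day 6 *Dppa2* was not called (log2 fold change 0.26, SE 0.59, adjusted p = 0.834). By day 8 it was nearly gone, at 9.34, 3.40, 6.09 and 0 RPM, and the X14 single culture had no read on day 7 and the X18 single culture none on day 8. These values are close to the floor of 3 reads, so the size of the fall by day 8 (log2 fold change -5.04, SE 0.59, adjusted p = 2.18e-08) rests on few reads.

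*Dppa4* peaked on day 4 in all 4 cultures before it fell. Its libraries had 60.1, 87.1, 70.9 and 89.6 RPM on day 0 and 163, 135, 154 and 142 RPM on day 4, and all those of day 4 were above all those of day 0. The mean was 1.93 times higher. The adjusted p passed, as for 16.3% of all genes in this direction, while the log2 fold change was just under 1 (log2 fold change 0.97, SE 0.27, adjusted p = 0.00698). It reached 1 with quantile normalization (1.01, adjusted p = 0.00628), without the X14 single culture (1.08, adjusted p = 0.0125) and without the X18 single culture (1.06, adjusted p = 0.0323). On day 6 the values were 73.5, 37.03, 65.7 and 70.03 RPM, overlapping those of day 0. On day 8 they were 10.4, 9.72, 25.2 and 11.9 RPM, below every library of days 0 to 6. *Dppa4* fell from day 4 to day 8 (log2 fold change -3.49, SE 0.27, adjusted p = 5.83e-12) and ended lower than on day 0 (log2 fold change -2.53, SE 0.27, adjusted p = 2.15e-09). The step from day 5 to day 6 passed the adjusted p with a smaller fold (log2 fold change -0.78, SE 0.27, adjusted p = 0.0447), as 4.13% of all genes did in this direction. *Dppa4* stayed under 0.5 of its highest level from day 6 on in all 4 cultures, and *Dppa2* from day 2 in X14 single and from day 4 in the other 3. The day 2 result for X14 single rests on its day 0 library, whose label is in doubt. Its values of 64.5, 83.5 and 72.5 RPM on days 2 to 4 were above 0.5 of its day 1 value, 101 RPM. In each culture *Dppa2* was at under 0.25 of its highest level from day 5 on, and *Dppa4* from day 7 or 8 on.

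*Utf1* took the opposite course to *Dppa5a* at first. Its day 0 libraries had 50.4, 68.99, 18.5 and 29.02 RPM. They had 180.4, 199, 171 and 234 RPM on day 2 and 300.5, 477, 339.6 and 455 RPM on day 4. Every library of days 2 to 4 was above every library of day 0. *Utf1* was called higher on day 2 (log2 fold change 2.40, SE 0.27, adjusted p = 2.33e-06), when no other member was called and 2.09% of all genes were called higher. It rose by day 3 (log2 fold change 3.04, SE 0.27, adjusted p = 1.72e-09), beside 5.72% of all genes, and day 4 (log2 fold change 3.38, SE 0.27, adjusted p = 3.31e-11). The highest value came on day 4 in 3 cultures and on day 5 in X18 double, where it was 343 RPM against 339.6 RPM on day 4.

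RefSeq's table for GRCm38.p6 held a promoter for 1 of the 6 genes, *Utf1*, which is shown because *Utf1* was the member that ended higher than it began. The stretch ends 1 base before the start of the gene in the expression table and spans chr7:139943606-139943788 on the plus strand. Its capitals mark the letters GGGCGG, known as a GC box and bound by Sp1-type factors.
Utf1 promoter: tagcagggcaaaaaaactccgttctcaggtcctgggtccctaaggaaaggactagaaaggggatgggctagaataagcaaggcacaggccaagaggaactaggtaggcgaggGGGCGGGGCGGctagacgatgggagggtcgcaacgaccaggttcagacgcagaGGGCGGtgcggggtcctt
The 183 bases were 59.6% G or C and held 10 CpG. GGGCGG was found 3 times on this strand, with an overlap of the first pair, and 0 times on the other strand. For comparison, the first 183 bases of each of 32851 mouse promoter sequences were taken, a length set by the start of *Utf1* and not by the start of each gene. Of these, 21.5% held GGGCGG on either strand and 3.36% held it at least as often. The octamer letters ATGCAAAT, the Sox letters CATTGTT and the TATA letters TATAAA were not in this window on either strand, and 1.17%, 2.51% and 8.49% of promoters held them.

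From that peak *Utf1* fell (log2 fold change -2.29, SE 0.27, adjusted p = 5.95e-08), to 56.1, 82.6, 77.5 and 108 RPM on day 8. Those values overlapped the range of day 0. The difference was called (log2 fold change 1.09, SE 0.27, adjusted p = 0.00145), but not on the recovered reads with voom (0.94, adjusted p = 0.00946), without the X18 double culture (0.77, adjusted p = 0.0593) or without the X18 single culture (0.83, adjusted p = 0.0479). *Utf1* ended higher in 4 of 4 cultures when each was set against the day 0 library of its label. For X14 this count rests on day 0 labels that are in doubt. Its double culture, at 56.1 RPM on day 8, was below the day 0 library labelled single, at 68.99 RPM. The rise in the X18 cultures does not rest on those labels.

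**Figure D2:**
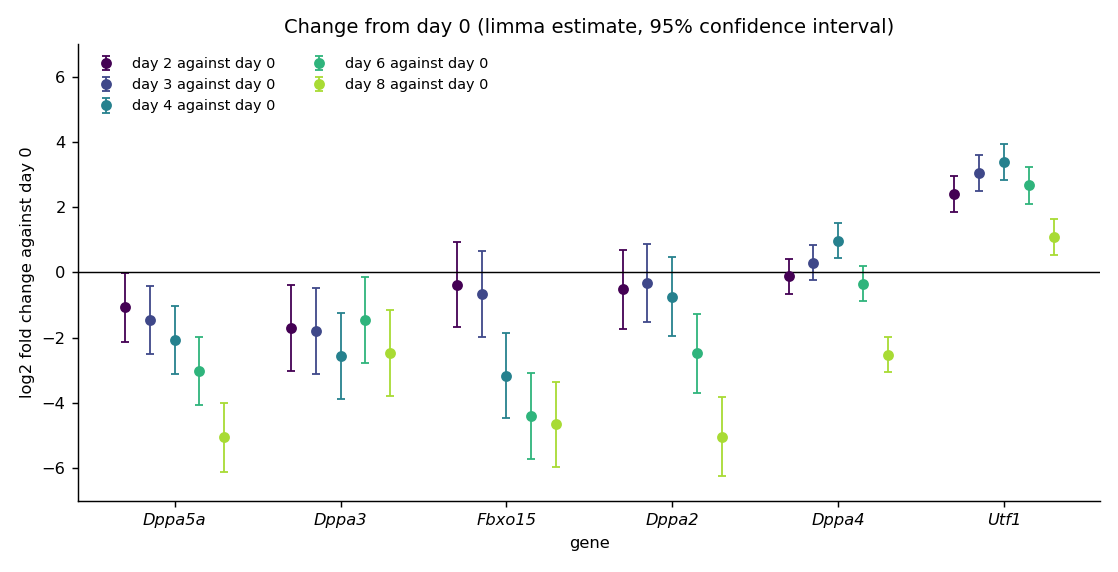
Log2 fold change against day 0 (y axis) for each gene (x axis) on days 2, 3, 4, 6 and 8, with points for the limma estimate over 36 libraries and bars for its 95% confidence interval. By day 8 the estimates for *Dppa5a*, *Fbxo15* and *Dppa2* lay between -5.06 and -4.65, those for *Dppa3* and *Dppa4* at -2.46 and -2.53, and that for *Utf1* at 1.09.

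By day 4, 3 of the 6 genes were called lower (*Dppa3*, *Dppa5a* and *Fbxo15*) and 1 higher (*Utf1*), where 6.40% of all genes were called lower and 12.2% higher. On day 6, *Dppa2* (-2.48), *Dppa5a* (-3.02) and *Fbxo15* (-4.40) were called lower, beside 11.0% of all genes. *Utf1* was still called higher (2.67), beside 22.4% of all genes. By day 8, 5 of the 6 were called lower, beside 11.1% of all genes, and *Utf1* alone was called higher, beside 23.9%. From day 4 to day 8, 4 members were called lower, beside 9.01% of all genes. The libraries of day 4 and day 0 did not overlap for 3 members that were lower and 2 that were higher, beside 7.83% and 12.4% of all genes. Those of day 8 and day 0 did not overlap for 5 that were lower, beside 9.85%. The median of all genes tested was 0.12 for day 4 and 0.23 for day 8 on the same log2 scale.

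On a scale per kilobase of exon, RPKM, *Dppa5a* had the highest mean on days 0, 4 and 8, and the order below it changed with time. On day 0 *Dppa5a* stood at 3868 ± 2004 RPKM (SD, n = 4), *Fbxo15* at 453 ± 145 RPKM (SD, n = 4), and *Dppa3*, *Dppa2*, *Dppa4* and *Utf1* followed at 118, 66.6, 50.2 and 34.02 RPKM. The neighbours among these last 4 lay within an SD of one another, the largest SD being the 69.98 RPKM of *Dppa3*. On day 4 *Utf1* at 320.4 ± 70.4 RPKM (SD, n = 4) was second only to *Dppa5a* at 859 ± 291 RPKM (SD, n = 4), and *Fbxo15* at 63.5 ± 47.4 RPKM (SD, n = 4) and *Dppa4* at 96.9 ± 8.08 RPKM (SD, n = 4) differed by less than the SD of *Fbxo15*. On day 8 *Dppa5a* and *Utf1* were at 116 ± 56.1 RPKM (SD, n = 4) and 66.1 ± 17.5 RPKM (SD, n = 4). *Fbxo15* and *Dppa3* did not differ beyond their spread on that day, at 21.5 and 21.3 RPKM, and *Dppa2* was lowest at 2.42 ± 2.04 RPKM (SD, n = 4). The counted exon length of *Fbxo15* was 1437 bases against 3360 in GENCODE, so its RPKM depends on which exons the authors' annotation held.

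Whether one member changed more than another was tested on their difference within each library, by exact permutation of the 8 libraries of the days compared, two-sided, with adjustment over the 15 pairs of a comparison. For day 4 against day 0, 12 of 15 pairs differed at an adjusted p of 0.0357, which corresponds to the smallest p that the test can give, 0.0286. The 3 pairs that did not were those among *Dppa3*, *Dppa5a* and *Fbxo15*. *Dppa2* and *Dppa4* differed by -1.71 on the log2 scale. For day 8 against day 0, 9 pairs differed at an adjusted p of 0.0476, among them every pair with *Utf1* and the pair of *Dppa2* and *Dppa4* (-2.51). *Dppa2* and *Dppa5a* had nearly the same estimate (difference 0.019, exact permutation p = 1). With the signs flipped within each culture instead, the pairing used for the replicate block, 0 pairs passed in either comparison, where the smallest possible p is 0.125.

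The double and single cultures were compared next, for a question the labels leave unstated. *Fbxo15* and *Dppa2* were higher in the double than in the single library of the same line in all 16 pairs of days 1 to 8, as 1.49% of all genes were. *Dppa3* was so in 14 pairs and *Dppa5a* in 14. *Dppa4* was higher in 10, and *Utf1* in 1. *Utf1* was higher in the single library in the other 15.

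In a fit with day and line over all 36 libraries, *Fbxo15* (log2 fold change 1.44, SE 0.18, adjusted p = 1.52e-06), *Dppa3* (log2 fold change 1.13, SE 0.22, adjusted p = 5.68e-04) and *Dppa2* (log2 fold change 1.05, SE 0.22, adjusted p = 0.00114) were called higher in the double libraries, where 2.05% of all genes were. Without day 0 the estimates were larger, for *Fbxo15* 1.65, adjusted p = 1.47e-09, for *Dppa3* 1.32, adjusted p = 1.68e-05 and for *Dppa2* 1.22, adjusted p = 1.41e-04. *Dppa5a* passed the adjusted p with a log2 fold change under 1 (log2 fold change 0.83, SE 0.18, adjusted p = 0.00166), beside 7.06% of all genes. It was called without X18 single (1.04, adjusted p = 0.0381). *Utf1* did so in the other direction (log2 fold change -0.43, SE 0.11, adjusted p = 0.00610), beside 8.62% of all genes. *Dppa4* did not pass (log2 fold change 0.12, SE 0.12, adjusted p = 0.542). The libraries of 1 culture on successive days entered this fit as separate samples, although there were only 2 cultures per label. A permutation of 2 against 2 cultures cannot give a p below 0.333, so these p-values describe the spread over days and not over cultures. The calls for *Dppa2* and *Dppa3* hung on single cultures. *Dppa2* was not called without X18 double (1.05, adjusted p = 0.0931), without X18 single (1.05, adjusted p = 0.102) or with voom (0.57, adjusted p = 0.0162). *Dppa3* was not called without X14 double (0.99, adjusted p = 0.00380), X14 single (0.99, adjusted p = 0.0789) or X18 double (1.28, adjusted p = 0.0672).

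**Figure D3:**
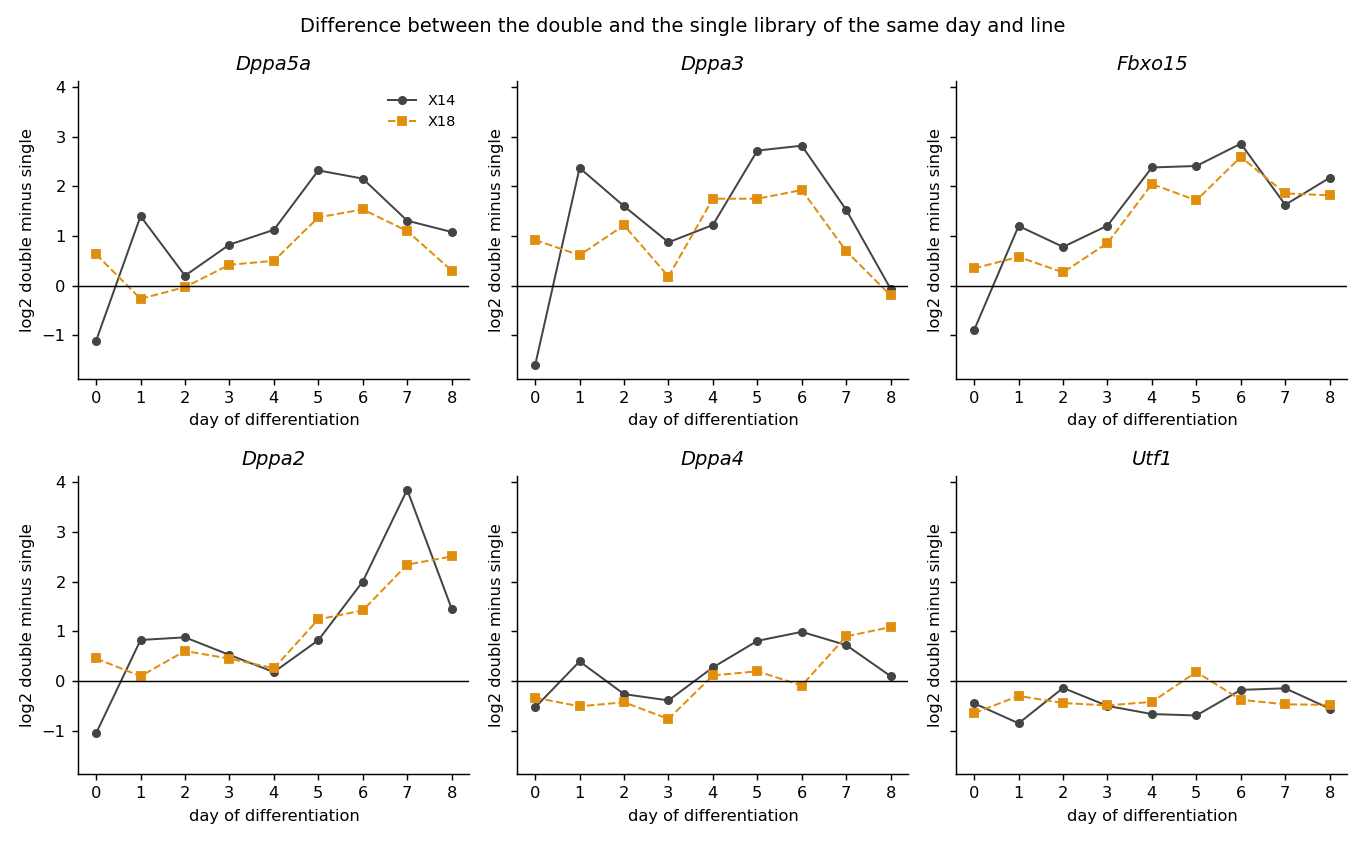
Log2 level of the double library minus that of the single library of the same day and line (y axis) by day (x axis), with circles for X14 and squares for X18. On days 5 to 8 *Fbxo15* ranged from 1.63 to 2.86, *Dppa2* from 0.82 to 3.85 and *Utf1* from -0.70 to 0.18, and the X14 pair of day 0 had the opposite sign to X14 on day 1 for *Dppa5a*, *Dppa3*, *Fbxo15*, *Dppa2* and *Dppa4*.

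The difference between the labels was larger late in differentiation for some members. On days 1 to 4 *Fbxo15* (1.17, adjusted p = 6.29e-05) and *Dppa3* (1.23, adjusted p = 0.00647) were called higher in the double libraries, beside 3.85% of all genes. *Dppa3* was no longer called without X14 double (0.95, adjusted p = 0.0408) or X14 single (1.08, adjusted p = 0.210), and *Fbxo15* not without X14 single (0.97, adjusted p = 0.0296). On days 5 to 8 the log2 fold change was 2.14 for *Fbxo15*, 1.96 for *Dppa2*, 1.40 for *Dppa5a* and 1.40 for *Dppa3*. All 4 were called (adjusted p = 1.17e-09, 2.27e-06, 9.99e-05 and 0.00264), beside 3.64% of all genes. The *Dppa2* estimate includes the single libraries of X14 on day 7 and X18 on day 8, which had no read and were written as 0.9 reads. Without X14 single, *Dppa3* (1.17, adjusted p = 0.200) and *Dppa5a* (1.18, adjusted p = 0.0785) were not called. *Dppa4* passed the adjusted p with a smaller fold (log2 fold change 0.59, SE 0.15, adjusted p = 0.00887), beside 5.96% of all genes, and *Utf1* did not pass (-0.34, adjusted p = 0.197).

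The change of the label difference itself, days 5 to 8 minus days 1 to 4, was called for *Dppa2* (log2 fold change 1.48, SE 0.35, adjusted p = 0.0158), beside 1.59% of all genes. This estimate also includes the single libraries without a *Dppa2* read. The change was not called without X14 double (adjusted p = 0.0968), X18 double (adjusted p = 0.133) or X18 single (adjusted p = 0.149). *Fbxo15* (0.97, adjusted p = 0.0329) and *Dppa4* (0.79, adjusted p = 0.0335) passed the adjusted p with a fold under the threshold, beside 1.81% of all genes. For *Dppa3* the label difference was about as large early as late (0.17, 95% confidence interval -0.72 to 1.05). None of the 6 differed between X14 and X18 by the adjusted p (0.214 to 0.941), and at an unadjusted p under 0.05 *Dppa3* (-0.58) and *Dppa5a* (-0.50) were lower in X14. Only 0.00684% of all genes were called higher and 0.00684% lower in X14.

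Genes known to regulate the 6, or to work with them, gave a mixed picture. The counts for these lists stand beside shares over all genes of 6.40% called lower and 12.2% higher on day 4, 11.1% and 23.9% on day 8, and 3.64% higher in the double libraries on days 5 to 8. Of 11 upstream factors, 8 were called lower on day 4 and 10 on day 8, and none higher, with a median log2 fold change of -3.95 on day 4. *Tbx3* (-6.36), *Klf4* (-5.40), *Prdm14* (-4.86) and *Nanog* (-4.20), transcription factors of naive pluripotency, had the 4 most negative values on day 4. *Pou5f1*, the Oct4 gene, was at 1223 ± 290.2 RPM on day 0 and 1205 ± 122 RPM on day 4, while *Fbxo15* fell and *Utf1* rose, and it was called lower by day 8 (log2 fold change -2.70, adjusted p = 1.52e-09). *Sox2* likewise was not called on day 4 (log2 fold change -0.46, adjusted p = 0.198) and fell by day 8 (-2.80). On days 5 to 8, 4 of the 11 were called higher in the double libraries and none lower, namely *Klf2* (1.74), *Tbx3* (1.73), *Nr5a2* (1.23) and *Prdm14* (1.20).

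The next counts stand beside the same shares over all genes, 6.40% called lower and 12.2% higher on day 4. On day 8 these shares were 11.1% and 23.9%. Of 14 other transcripts associated with embryonic stem cells, 12 were tested. On day 4, 7 were called lower and 2 higher, the latter being *Dnmt3l*, the cofactor of the de novo methyltransferases (4.87), and *L1td1*, an RNA-binding protein gene (2.24). On day 8, 8 were called lower, *Nr0b1* (-7.07) and *Tcl1* (-6.89) by the most, and *Dnmt3l* was still called higher (1.17). Of 8 formative and primed genes, 6 were called higher on day 4 (median of the 8, 4.41 on the log2 scale), and on day 8, 4 were called higher and 1 lower. Their summed level on day 4 was 2222 to 2303 RPM in the double and 3744 to 4484 RPM in the single libraries. Both relatives of *Dppa5a* that could be tested fell, *Ooep* (-6.94) and *Khdc3* (-4.88) on day 8 against day 0, and *Ooep*, a maternal-effect gene of the oocyte, was among the genes most like *Dppa5a*.

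Of 13 genes listed as known to be activated or kept open by Dppa2 and Dppa4, 11 had a row and 10 were tested, and on day 4 none was called in either direction. On days 5 to 8, 9 of the 10 were called higher in the double libraries, with a median of 2.31 beside -0.041 for all genes. Among them were *Zscan4c* (3.14), *Zscan4d* (2.89), *Tcstv1* (3.27) and *Zfp352* (2.54), all transcripts of the 2-cell embryo, and *Hand1* (2.41), a mesoderm and trophoblast factor. On days 1 to 4, 4 were called lower in the double libraries, all *Zscan4* copies, beside 3.31% of all genes, and *Syce1*, a gene of the meiotic synaptonemal complex, was called higher (log2 fold change 1.41, adjusted p = 0.00360). *Syce1* was also called lower by day 8 (log2 fold change -3.72, adjusted p = 9.04e-05), as *Dppa2* was, and *Hand1* was called higher by then (6.30). The summed level of the list on day 6 was 60.8 to 81.4 RPM in the double and 4.94 to 6.82 RPM in the single libraries. On day 8 it was 153 to 177 RPM and 19.03 to 33.04 RPM, when *Dppa2* itself was at 9.34 RPM or less. The day 8 sum was mostly *Hand1*, which held 57.1 ± 38.7 RPM over the 4 libraries. The *Zscan4* copies are near-identical, so reads may be split among them and their calls are not separate results. No copy had a mean above 15.9 RPM on any day.

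For the next lists, 12.2% of all genes were called higher and 6.40% lower on day 4, and 23.9% and 11.1% on day 8. *Dnmt3b* (5.29), *Dnmt3l* and *Dnmt3a* (3.53) were among 5 of 9 methylation genes called higher on day 4, and *Tet2* (-1.74) was the one called lower. *Uhrf1*, the partner of Dppa3, was called against day 0 on neither day 4 (0.38) nor day 8 (log2 fold change -0.70, adjusted p = 0.0377), and was called lower on day 8 than on day 4 (-1.07). None of the 5 other subunits and helpers of the Fbxo15 ligase was called on day 4, a count near the shares over all genes. *Skp1a* was called lower on day 8 (log2 fold change -1.03, adjusted p = 0.00584). Of the 7 genes linked to Utf1, *Jarid2* (1.89) and *Mycn* (1.41) were called higher on day 4 with *Utf1*, *Eed* was called lower on day 8 (-1.62), and *Dcp1a* was called on neither day.

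Markers of other cell types moved in the same days. The summed level of 5 epithelial genes was 225 to 898 RPM in double and 476 to 525 RPM in single libraries on day 0, and 5448 to 6661 RPM and 3789 to 4085 RPM on day 8, and all 5 were called higher on day 8. The sum of 6 mesoderm genes, *Hand1* among them, went from at most 1.39 RPM in any day 0 library to 89.2 RPM or more in every day 8 library. Of the 4 mesoderm genes tested, 2 were called higher on day 8 against day 0, where 23.9% of all genes were. The 6 endoderm genes together stayed at 42.4 RPM or less in every library. Their sum was 1.13 RPM or less on day 4 and 2.61 RPM or more on day 8. Of the 4 endoderm genes tested, 1 was called higher on day 8 against day 0 and none lower, while *Ttr* and *Afp* were at 0 on day 8. The 6 neural genes together stayed at 331 RPM or less. Beside *Dppa3*, itself a germ cell gene, the sum of 6 germ cell markers on day 8 was 229.8 to 324 RPM in the double and 156 to 196 RPM in the single libraries. Most of it was *Tfap2c* (166 ± 74.5 RPM). On days 5 to 8, 2 of the 6 were called higher in the double libraries, *Tfap2c* (1.51) and *Dazl* (1.54), and none lower. Of all genes, 3.64% were called higher there. On day 8 against day 0, 3 of the 6 were called lower and 1 higher, beside 11.1% and 23.9% of all genes. *Nanos3* had no read on day 8, *Dazl* fell by day 8 (-6.95) and *Prdm1* was not called (log2 fold change 0.72, adjusted p = 0.371). The part of any of these cell types in the levels of the 6 genes was not tested.

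The genes most like each member were found by Pearson's r of the log2 values over the 36 libraries, among 10881 genes, as a description, since the libraries share cultures and days. Those of *Fbxo15* were *Mylpf* (r = 0.960), *Nlrp4f* (r = 0.960) and *Mreg* (r = 0.959). The likest to *Dppa2* was the zinc finger gene *Gm13154* (r = 0.960), with *Rpl10l* (r = 0.949) and *Gm13247* (r = 0.930) next. For *Dppa5a* these were *Rpl39l* (r = 0.940), *Ooep* (r = 0.935) and *Dhx16* (r = 0.931). For *Utf1* they were *Slc39a14* (r = 0.889), *Gldc* (r = 0.888), the glycine decarboxylase gene, and *Phc1* (r = 0.873), a Polycomb subunit gene. *Dppa4* had *Gm13242* (r = 0.882), *4930566F21Rik* (r = 0.880) and *2610305D13Rik* (r = 0.870). *Dppa3* had the weakest matches, *Ostf1* (r = 0.872) and the X-linked *Acot9* (r = 0.784) and *Ssr4* (r = 0.783). With Spearman's rho in place of r, 2 of the 3 genes stayed for *Dppa5a*, *Fbxo15* and *Utf1*, 1 for *Dppa2* and *Dppa3*, and none for *Dppa4*.

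Among themselves, the closest pair over the 36 libraries was *Dppa5a* and *Fbxo15* (r = 0.905), followed by *Dppa2* and *Dppa5a* (r = 0.876) and by *Dppa2* and *Fbxo15* (r = 0.845). The neighbours *Dppa2* and *Dppa4* had r = 0.747. *Utf1* ran against *Dppa3* (r = -0.520) and was closest to *Dppa4* (r = 0.435), the other member that was higher on day 4 than on day 0.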

How the data were processed

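Total RNA of 36 libraries from 2 Xmas mESC lines was sequenced by the authors on a NextSeq500 as 75 bp single-end reads. Reads were trimmed, aligned to mm10 with TopHat2 2.0.12 or hisat2 and quantified in SeqMonk, and the submitters' notes also name bcl2fastq. The deposited table holds log2 values of reads per kilobase of exon and 1000000 reads. The annotation version and the strand of counting are not given in the sources used here.

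The values of 100% of genes matched whole reads to within 0.02 reads (a gene without reads is written as 0.9 reads), which gave reads and RPM per library. Genes with at least 1 RPM in 4 libraries were tested in R 4.3.3 with limma 3.58.1 (lmFit, eBayes with trend) on the deposited log2 values, which was checked on simulated data. The model held day, or day, line and label. Values were described with Python 3.11.15, pandas 2.3.3 and scipy 1.17.1. All 36 value columns were mapped to samples by name.

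Replicate numbers stand for the same line and label on every day, so they pair the libraries (correlation of deviations of day 0 and day 8: 0.304, 0.0173, 0.163 and 0.235). Over all pairs of different days the mean correlation was 0.0894, 0.115, 0.136 and 0.166 within replicates 1 to 4. Between the lines it was 0.102 for the double and 0.0673 for the single label. X14 double was thus no more like itself than like X18 double, and the day 0 labels of X14 are in doubt. The pairing was used as an alternative fit, the replicate block. Others were 75th percentile scaling, quantile normalization, other filters, log2(RPM + 1), voom on the recovered reads, and fits without each culture, day 0 or the X14 libraries of day 0. Named genes were the 6 members, the genes of lists of regulators, partners and cell type markers, and the 3 genes most correlated with each member among those with a day mean of at least 10 RPM. *Hand1*, *Dnmt3a*, *Dnmt3b*, *Dnmt3l*, *Nanog* and *Khdc3* stand in more than 1 list. The members and lists were chosen with earlier results of these data known. Confidence intervals come from the limma fit and the spread between libraries. The 3-read floor covers counting error only, and reads are not independent molecules.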

Additional observations from a re-analysis of the deposited data

Results flagged for a closer look

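One library stood far from the other 3 of its day in 2 cases, by Dixon's ratio of the gap to the nearest library over the whole range of the 4. *Dppa2* on day 1 was lowest in X14 single, at 101 RPM and 192 reads, with a ratio of 0.887. *Dppa4* on day 6 was lowest in X14 single, at 37.03 RPM and 30 reads, with a ratio of 0.836. In all, 54 groups of 4 were looked at, and chance alone gives about 1 such case in 20 groups.

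The difference between double and single libraries was tested for a change from days 1 to 4 to days 5 to 8, and 3 members passed the adjusted p. The change was 1.48 on the log2 scale for *Dppa2*, 0.79 for *Dppa4* and 0.97 for *Fbxo15*, all towards higher levels in double libraries late in differentiation. No explanation was tested.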

How the results depend on the processing

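Of 1104 values of single members recomputed under other settings, 1044 kept their direction and their side of the threshold, 23 lost a call, 26 gained one and 11 changed sign. All sign changes were of values that were not called. The X18 single and X14 single cultures carried the most calls, as named beside each result, and the depth of 612740 to 2445826 reads limits the values of *Dppa2* on days 7 and 8, where 2 libraries held none.

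The number of members called lower on day 2 was 0, and became 2 without the X14 libraries of day 0 and 1 with the replicate block. On day 3 it was 0, and became 1 with 75th percentile scaling, with a mean of at least 10 RPM, with log2(RPM + 1) or with only the 2 days fitted, and 2 with voom, without the X14 libraries of day 0 or with the replicate block. The block changed no other call than those named in the text. The number called higher on day 4 was 1 and became 2 with quantile normalization, that on day 8 was 1 and became 0 with voom, and that for the change of the label difference was 1 and became 2 with either. With the sign flips of the replicate block, 0 pairs of members differed on day 4 and 0 on day 8, in place of 12 and 9.

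With 1 culture left out at a time, the counts ranged from 1 to 2 (higher, day 4), 0 to 1 (higher, day 8), 1 to 3 (higher in double), 0 to 2 (the same, days 1 to 4), 2 to 4 (the same, days 5 to 8), 0 to 1 (change of the label difference), 0 to 1 (lower, day 2), 0 to 2 (lower, day 3), and 0 to 1 each for the steps from day 3 to 4 and from day 4 to 5. For pairs of members that differed the range was 0 to 0 on both days, since 3 libraries per day cannot reach the threshold.

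*Dppa3*, day 8 against day 4, was -0.072 with quantile normalization and -0.11 with voom. *Utf1*, X14 against X18, was -0.029 with voom and -0.15 without day 0. Leaving out 1 culture gave ranges of -0.26 to 0.64 for *Dppa2* minus *Dppa5a*, day 8 against day 0, -0.33 to 0.51 for *Dppa3* minus *Dppa4*, day 8 against day 0, -0.53 to 0.61 for *Dppa3*, day 8 against day 4, -0.42 to 0.024 for *Dppa4*, double against single, days 1 to 4, -0.66 to 0.055 for *Dppa5a*, day 5 against day 4, -0.022 to 0.060 for *Utf1*, X14 against X18 and -0.024 to 0.30 for *Utf1*, label effect of days 5 to 8 minus that of days 1 to 4. The cause of these changes was not tested.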
